A study of Mus musculus with 48 samples.

Results

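Monocyte cultures of single mouse clones differ in how much S100a8 they hold, and the 8 cultures with the most were compared here with the 8 with the least, 16 of the 48 libraries of the series. The cells are ER-Hoxb8 cells of mouse bone marrow. Each of 24 clones was sequenced once as granulocyte-monocyte progenitors and once as monocytic cells, so that a library stands for 1 clone in 1 state (total RNA, the same growth medium with serum and stem cell factor named for both states). No strain, age or treatment is given in the labels, and the words plus and minus in the sample titles are not explained there. Monocyte libraries were ranked by their S100a8 level in TPM, an abundance corrected for transcript length and relative to the library total, separately within clones 1 to 13 and within clones 15 to 26. The 4 highest of each set formed the high group (n = 8) and the 4 lowest the low group (n = 8). Another 6 clones ranked between them, and clones 8 and 26 were left out by the rule. The sets are those of the clone numbers, and the labels name no batch. All groups carry ER-Hoxb8, an estrogen-dependent form of the homeobox factor Hoxb8 that keeps myeloid progenitors dividing until its activity is withdrawn. The libraries of a group come from different clones, but each clone has 1 library per state, so differences between clones and between libraries of a clone cannot be told apart.

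S100a8 and S100a9 encode the subunits of calprotectin, a calcium- and zinc-binding protein that fills the cytoplasm of neutrophils and is also abundant in classical monocytes. Granulocyte-monocyte progenitors can form both cell types. Cebpe and Gfi1 are known for their part in granulocyte maturation and Irf8 and Klf4 for theirs in monocytes. Secondary granule proteins such as lactoferrin and cathelicidin are made late in neutrophil maturation, after the proteases and myeloperoxidase of the primary granules.

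In clones 1 to 13 the high group held 30532, 32292, 34630 and 49499 TPM of S100a8 (clones 7, 12, 2 and 9) and the low group 8849, 10842, 16379 and 19552 TPM (clones 5, 1, 10 and 11). In clones 15 to 26 the high group held 26692, 31064, 41618 and 49870 TPM (clones 16, 19, 20 and 21) and the low group 237, 1021, 2067 and 4369 TPM (clones 22, 23, 17 and 24). These values chose the groups and were given no test. The high groups of the sets were thus alike in level, while the low groups were not: every low clone of the first set lay above every low clone of the second. Just outside the groups stood clone 3 with 29877 and clone 4 with 21451 TPM in the first set, and clone 15 with 8152 and clone 18 with 5378 TPM in the second. The edge of the high group in clones 1 to 13 was therefore narrow, and the gap below the high group in clones 15 to 26 was wide.

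**Figure D1:**
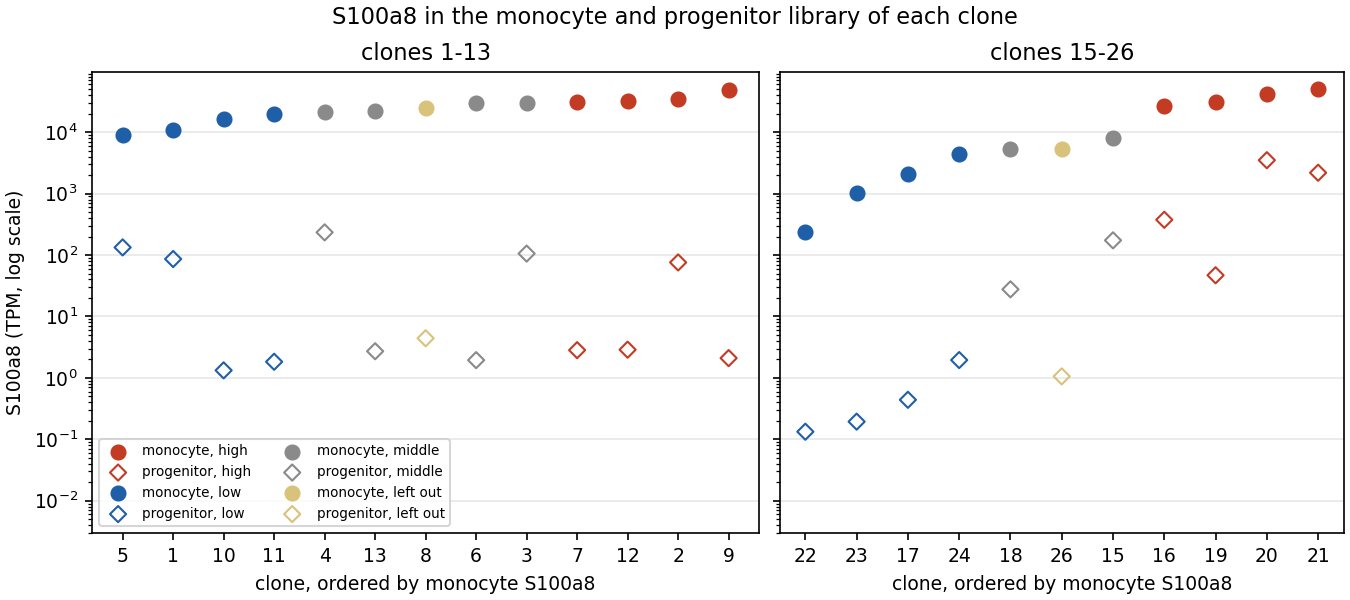
S100a8 in TPM (log scale) for each clone, ordered by its monocyte level within clones 1 to 13 (left) and clones 15 to 26 (right). Filled circles are monocyte libraries and open diamonds are progenitor libraries of the same clone, coloured by group. The low monocytes of clones 1 to 13 sit at 8849 TPM or more, those of clones 15 to 26 at 4369 TPM or less.

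The start regions of S100a8, of S100a9 and of 3 secondary granule genes are shown as examples of genes higher in the high group over both sets. Of these, Ltf overlapped fully between the groups in clones 1 to 13. They are RefSeq promoter sequences (build GRCm38.p6, mm10 coordinates), 5′ to 3′ on the strand of the gene, from 250 bases before the RefSeq start and up to the first annotated exon. Capitals mark matches on either strand to TTGCNNAA, a motif of C/EBP factors, or to GAGGAAG, a motif of PU.1.
S100a8 (chr3:90668821-90668977, plus strand): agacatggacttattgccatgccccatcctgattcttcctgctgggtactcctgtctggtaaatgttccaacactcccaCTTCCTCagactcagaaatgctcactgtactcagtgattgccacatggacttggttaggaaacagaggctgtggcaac
S100a9 (chr3:90695722-90695971, minus strand): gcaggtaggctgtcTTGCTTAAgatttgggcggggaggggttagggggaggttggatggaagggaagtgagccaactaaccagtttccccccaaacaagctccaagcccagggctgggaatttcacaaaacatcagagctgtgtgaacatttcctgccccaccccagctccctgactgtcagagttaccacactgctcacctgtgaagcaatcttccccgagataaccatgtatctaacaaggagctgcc
Ltf (chr9:111019042-111019270, plus strand): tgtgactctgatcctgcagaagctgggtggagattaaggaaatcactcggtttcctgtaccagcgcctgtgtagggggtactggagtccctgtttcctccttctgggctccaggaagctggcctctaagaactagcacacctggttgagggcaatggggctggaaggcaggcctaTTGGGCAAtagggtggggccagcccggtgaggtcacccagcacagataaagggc
Ngp (chr9:110419558-110419746, plus strand): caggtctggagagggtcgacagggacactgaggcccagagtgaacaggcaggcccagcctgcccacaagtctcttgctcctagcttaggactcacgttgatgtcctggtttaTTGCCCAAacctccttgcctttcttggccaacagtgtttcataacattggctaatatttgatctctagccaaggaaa
Camp (chr9:109849618-109849706, minus strand): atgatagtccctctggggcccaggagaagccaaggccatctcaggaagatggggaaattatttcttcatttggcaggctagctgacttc
The S100a8 window held 1 PU.1 match, beginning 171 bases before the start, and no C/EBP match. S100a9 had a C/EBP match at 236 bases and Ltf one at 75 bases. Ngp had C/EBP matches at 138 and at 11 bases, the latter past the stretch printed, and Camp had neither motif. Of other genes named below for large differences upward, Stfa2l1, Stfa2, Stfa3 and Chil1 had neither motif and Stfa1 had 1 match of each. Of those named for large differences downward, Ctsk had 1 C/EBP and 2 PU.1 matches. Nckap5l and Spp1 also had matches, and Sec24d, Ap5s1, Rusc2 and Ecm1 had none. Of the genes tested in monocytes, 7805 had a promoter in the RefSeq table, and 8.97% of these held the C/EBP motif and 13.3% the PU.1 motif within 250 bases. Of 162 genes that were higher in the high group 15.4% held the C/EBP motif and 17.9% the PU.1 motif, and of 879 that were lower 9.10% and 13.1%. Over all 27025 gene symbols in the table the shares were 10.84% and 12.004%. These shares are descriptions of letters in a window, with no test.

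Some measures of library composition differed between the groups. S100a8 and S100a9 together took 6.28 to 12.7% of all TPM in the high group and 0.0328 to 4.73% in the low group. With the secondary granule and neutrophil lists it was 9.80 to 30.02% against 0.242 to 10.5%. Both values include S100a8, which chose the groups, so their separation is partly set by the rule and was given no test. TPM share a fixed total, so every other gene is pushed down where the genes counted here are high. The share of gene models named Gm was 21.9% ± 3.46 (SD, n = 8) in the high and 24.7% ± 3.73 in the low group (exact permutation test within sets, two-sided, p = 0.140), and that of mitochondrial transcripts 6.64% ± 5.66 and 8.50% ± 3.89 (p = 0.391). High libraries held 9436 to 10645 genes with at least 1 TPM and low ones 10060 to 10717, a mean difference of -449.75 genes (p = 0.0237, where 0.000408 is the smallest p that the arrangements allow). Clones 19 and 21 had the fewest such genes of the 16, 9448 and 9436, and clone 19 held 19.2% mitochondrial transcripts. What part these differences have in the gene results below was not tested beyond the alternative scalings. TPM keep no sequencing depth, so counting error is unknown.

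Across the other genes, 1369 of 10758 tested differed between the groups (12.7%; limma on log2(TPM + 1) with the set as covariate, Benjamini-Hochberg adjusted p under 0.05). Of these 221 were higher with high S100a8 (2.05%) and 1148 were lower (10.7%). The counts of each gene list below stand beside these shares. At least 2-fold differences were called for 153 higher and 551 lower genes. The median difference over all tested genes was -0.24 log2 units. With the granule and neutrophil lists taken out of the total the median was -0.05, and 215 genes were higher and 272 lower. Median-ratio scaling gave a median of -0.04 with 530 higher and 643 lower, and a total without mitochondrial, Gm and pseudogene entries gave -0.35 with 276 higher and 2017 lower. The share of calls that were higher was thus 16.1% in TPM as deposited, and 44.1, 45.2 and 12.04% under these scalings. A core of 156 higher and 254 lower genes was called in the same direction under all 4.

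The sets contributed unequally. Of the genes called higher, 215 of 221 had the same sign in both sets, and all 1148 called lower did. A call over both sets favours genes with the same sign. The median of all genes was also negative in both sets (-0.24 and -0.26), so these counts do not measure agreement between the sets. Of the called genes, 210 of the higher and 809 of the lower differed more in clones 15 to 26. The same shares over all genes tested are not given, and the ranking itself set a larger S100a8 contrast in clones 15 to 26. Fitted alone, clones 1 to 13 gave no call in either direction and clones 15 to 26 gave 122 higher and 31 lower. Without clones 19 and 21, 29 genes were higher and 56 lower, and 26 and 55 of these were among the original calls. Single clones also moved the counts: without clone 24 there were 87 higher and 345 lower, without clone 21 there were 101 and 401, without clone 9 there were 121 and 379, without clone 20 there were 121 and 644, without clone 17 there were 128 and 544, and without clone 5 there were 130 and 466. Leaving out clone 23 gave 147 higher, clone 1 gave 661 lower and clone 16 gave 1739 lower. Of 60 genes named by rule and called, 24 kept their call whichever single clone was left out and under all scalings, 10 higher and 14 lower. Without clones 19 and 21 together, 0 of the 17 higher and 5 of the 43 lower named genes kept their call.

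**Figure D2:**
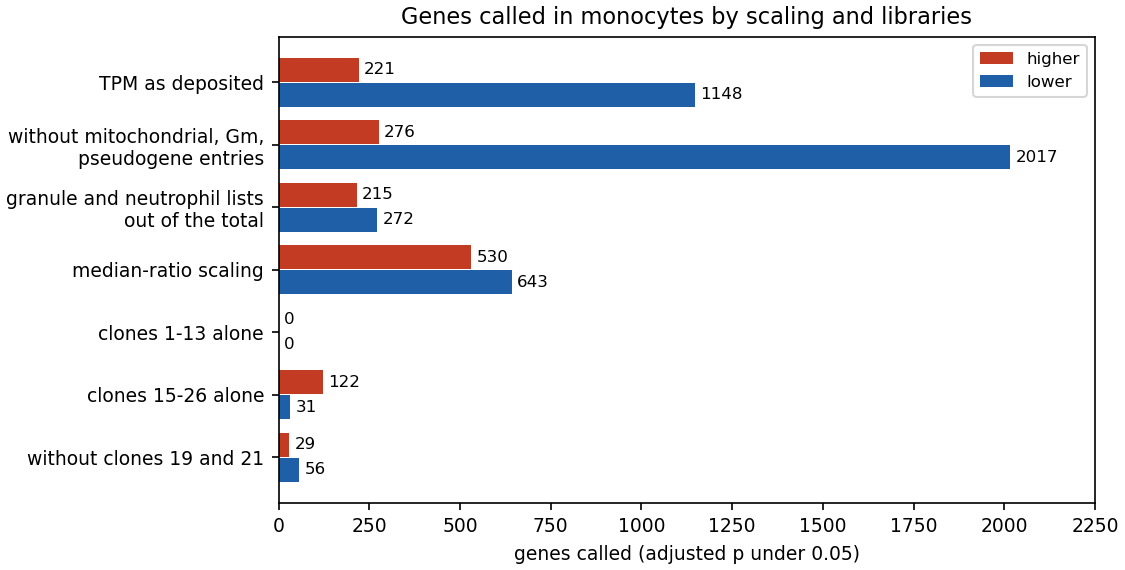
Number of genes called higher (red) and lower (blue) with high S100a8 in monocytes, for 4 scalings of the TPM and for 3 choices of libraries. The lower count ranges from 272 to 2017 between scalings, and clones 1 to 13 alone give 0 calls in both directions.

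S100a9, the partner of S100a8 and its neighbour on chromosome 3 (chr3:90692632-90695721, against chr3:90668978-90670035 for S100a8, GENCODE M21), followed it closely. In clones 1 to 13 the high group held 41222, 41080, 45764 and 67768 TPM and the low group 12299, 15221, 21126 and 27549 TPM, each in the clone order given above. In clones 15 to 26 the values were 35853, 38235, 67399 and 76216 TPM against 90.3, 769, 1154 and 4944 TPM. No high clone overlapped a low one in either set. The difference was 3.71 log2 units (SE 0.79, adjusted p = 0.0170), 1.40 in the first set and 6.02 in the second.

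Over both sets, secondary granule genes had the highest median of the gene lists. Of 15 tested, 9 were higher and none was lower, with a list median of 2.38 log2 units against -0.24 for all genes. The median was 0.52 in clones 1 to 13 and 4.20 in clones 15 to 26. In clones 1 to 13 other lists had higher medians, among them primary granule (1.15) and cell cycle genes (0.89). Ltf encodes the iron-binding granule protein lactoferrin. Its level in clones 15 to 26 was 22254, 9997, 36121 and 48972 TPM in the high group and 1.15, 50.4, 32.9 and 424 TPM in the low group. In clones 1 to 13 it was 17036, 9592, 22514 and 18456 TPM against 13368, 22467, 12472 and 13923 TPM. The Ltf groups were therefore far apart in the second set and overlapped fully in the first (4.78 over both sets, SE 1.36, adjusted p = 0.0340), and the call was lost when the granule lists were taken out of the total (adjusted p = 0.0508).

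Camp, the antimicrobial cathelicidin, separated in both sets. Its levels in clones 1 to 13 were 1444, 1165, 2160 and 3119 TPM with high S100a8 and 474, 574, 757 and 679 TPM with low S100a8. In clones 15 to 26 they were 614, 438, 990 and 1206 TPM against 0.651, 1.52, 5.39 and 17.2 TPM. The difference was 4.46 log2 units (SE 0.81, adjusted p = 0.0134). Its call held in every fit that left out 1 clone and was lost without clones 19 and 21 together. Ngp, the neutrophilic granule protein, was 3.90 higher (SE 0.85, adjusted p = 0.0170), with 4037 to 10648 against 1819 to 4251 TPM in the first set and 1276 to 6758 against 10.7 to 249.1 TPM in the second. Olfm4 (3.06), Pglyrp1 (2.66), a peptidoglycan-binding granule protein, and Lcn2 (2.38), the siderophore-binding lipocalin of these granules, were also higher. Mmp8 and Cd177 did not pass, with differences of 0.47 and 0.93 and adjusted p of 0.742 and 0.461. Without clones 19 and 21, 2 of the 15 were called, and Camp, Ngp and Ltf were not among them.

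Stefins and their neighbours on chromosome 16 made up 6 of the 10 largest named differences upward. Stfa2l1 (chr16:36156811-36161953), a cysteine protease inhibitor of the stefin A family, held 3935, 3378, 5877 and 5216 TPM in the high clones of the first set against 2407, 2238, 2114 and 3232 TPM in the low ones. Clones 15 to 26 held 3216, 1317, 13910 and 15666 TPM against 0.286, 6.71, 3.71 and 88.3 TPM. The groups did not overlap within either set, though the lowest high clone lay below the low clones of the first set (5.14, SE 1.25, adjusted p = 0.0218). BC100530 (5.18), Stfa2 (4.94), BC117090 (4.80), Stfa1 (4.49) and Stfa3 (4.19) followed the same order of sets. Reads are divided among near-identical stefin copies by the quantification, so the split between these genes is uncertain. Their summed level was not tested.

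The wider list of mature neutrophil genes, which holds S100a9 and most stefins, had 15 of 26 tested higher and none lower (median 1.79, 0.30 in the first set and 3.09 in the second, and 1 of 26 without clones 19 and 21). Retnlg, a resistin-like protein of neutrophils, held 83.6, 40.5, 801 and 1197 TPM in the high clones 16, 19, 20 and 21 and between 0 and 1.39 TPM in the low clones of that set, while the groups overlapped in clones 1 to 13 (3.65, SE 1.10, adjusted p = 0.0400, and 0.0550 with the granule lists out of the total). Padi4 (3.22), the enzyme that citrullinates histones in neutrophils, and Wfdc21 (1.99) were also higher. Wfdc21 was at 863 TPM or more in each high clone and at 698 TPM or less in each low one, so its groups did not overlap across the sets. Surface markers of mature neutrophils did not pass: Ly6g differed by 0.92 (adjusted p = 0.308), Cxcr2, the chemokine receptor for release from marrow, by 1.61 (0.0922), and Csf3r, the G-CSF receptor, by 1.09 (0.0771). Ly6g reached at most 55.8 TPM in any of the 16 libraries.

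Primary granule genes did not go with S100a8 in the same way in both sets. None of 12 tested was called, the median was -0.77, and the sets pointed opposite ways (1.15 in clones 1 to 13 and -2.03 in clones 15 to 26). Mpo, myeloperoxidase, held 267 to 499 TPM in the high and 40.9 to 758 TPM in the low clones of the first set. Clones 15 to 26 held 552, 2861, 12.05 and 4.95 TPM in the high clones 16, 19, 20 and 21, against 183 to 4796 TPM in the low clones. The 2 clones of that set with the most S100a8 thus held the least Mpo, and the difference over both sets of -0.96 was not called (adjusted p = 0.635). Elane, neutrophil elastase, differed by -1.04 (adjusted p = 0.553) in the same layout.

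Among 9 factors of granulocyte development 3 were higher and 2 lower. Cebpe, which drives the secondary granule genes, held 113, 81.2, 125 and 151 TPM against 55.3, 62.2, 69.4 and 89.8 TPM in clones 1 to 13, and 148, 205, 236 and 205 TPM against 38.5, 3.65, 16.3 and 20.3 TPM in clones 15 to 26. Only clone 12, at 81.2 TPM, lay within the range of its set's low group (2.18, SE 0.48, adjusted p = 0.0170). Id1, an inhibitor of helix-loop-helix factors, was at 14.2 to 24.9 TPM in the high and 4.11 to 13.2 TPM in the low group, with no overlap (1.02, SE 0.21). Klf5 was higher by 0.88 at no more than 3.31 TPM. Cebpa and Cebpb, shared factors of both lineages, were lower by 0.82 and 0.81 in TPM as deposited, and neither was called once the granule lists were taken out of the total or under median-ratio scaling. Gfi1 differed by 0.53 (adjusted p = 0.473). Without clones 19 and 21 none of the 9 was called.

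**Figure D3:**
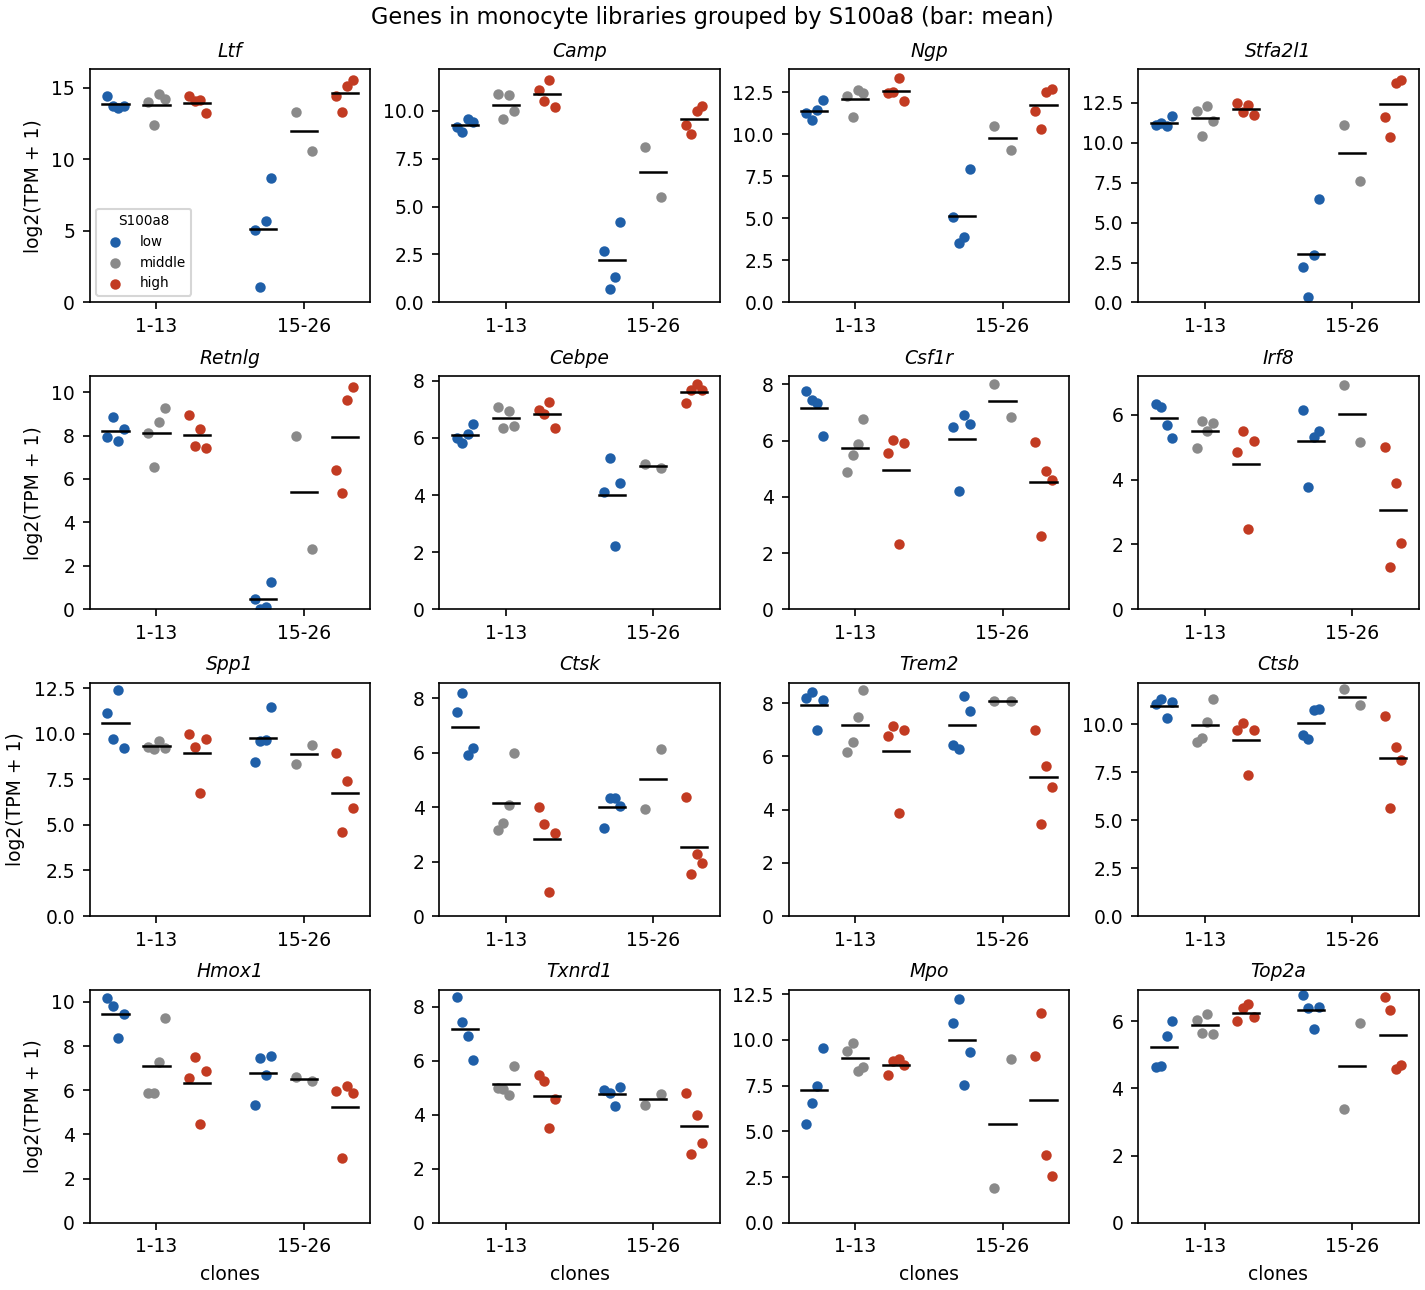
Levels of 16 genes (log2(TPM + 1)) in the monocyte libraries of clones 1 to 13 and 15 to 26, grouped by S100a8 as low (blue), middle (grey) and high (red), with bars at group means. Ltf and Retnlg part the groups in clones 15 to 26 and overlap in clones 1 to 13, whereas Ctsk and Hmox1 part further in clones 1 to 13.

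Genes of monocyte identity were lower or not called. Of 20 classical monocyte genes 3 were lower and none higher (median -0.75, and 0 called with the granule lists out of the total). Over all genes tested 10.7% were lower, so this count is near that share. Csf1r, the receptor for macrophage colony-stimulating factor, held 64.1, 59.8, 46.0 and 3.97 TPM in the high clones of the first set against 175, 216, 159 and 70.1 TPM in the low ones. In the second set it held 61.5, 5.13, 29.4 and 23.1 TPM against 17.5, 119, 87.6 and 95.0 TPM. Clone 22, the lowest in S100a8, was thus also low in Csf1r and kept the groups of its set from separating (-1.87, SE 0.59, adjusted p = 0.0472). The lysosomal protease gene Ctss (-2.05) and Cd68 (-1.90), a lysosomal membrane glycoprotein of phagocytes, were the other calls. Ly6c2 and Ccr2, surface markers of classical monocytes, differed by -0.40 and -1.25 and were not called, and Lyz2, lysozyme, differed by -0.29.

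Of 15 monocyte and dendritic factors Irf8 (-1.76, adjusted p = 0.0439), Klf4 (-0.95) and Irf5 (-0.92) were lower, where 10.7% of all genes tested were. Irf8 held 43.8, 35.3, 27.6 and 4.51 TPM with high S100a8 and 74.5, 79.5, 50.6 and 38.2 TPM with low S100a8 in the first set. In the second set the values were 30.9, 1.45, 14.0 and 3.15 TPM against 12.8, 39.0, 69.5 and 44.0 TPM. The groups overlapped in both sets, and the call was lost with the granule lists out of the total (adjusted p = 0.0873) and under median-ratio scaling (0.0512). Klf4 kept its call under median-ratio scaling (0.0376) but not with the granule lists out of the total (0.0539), and its level was at most 4.21 TPM. Among 12 non-classical monocyte genes Pparg, a lipid-responsive nuclear receptor, was lower by 1.22 and Pou2f2, an octamer-binding factor, by 0.88. Irf5, Pparg and Pou2f2 were not called with the granule lists out of the total (adjusted p = 0.145, 0.0660 and 0.0737), nor Irf5 and Pou2f2 under median-ratio scaling (0.0854 and 0.0524). Without clones 19 and 21 no gene of these 3 lists was called.

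Macrophage genes were lower in 5 of 19 cases and none was higher, with a list median of -1.26 against -0.24 for all genes. Spp1, osteopontin, was 2.37 lower (SE 0.68, adjusted p = 0.0358), with 105.1 to 1021 against 586 to 5407 TPM in clones 1 to 13 and 23.7 to 492 against 347 to 2823 TPM in clones 15 to 26, overlapping in both. Mmp12, macrophage elastase, held 36.7, 73.5, 95.0 and 9.56 TPM against 865, 467, 97.9 and 201 TPM in the first set (-2.33, SE 0.58, adjusted p = 0.0238). Its groups separated in that set and overlapped in the second. Lpl, lipoprotein lipase (-1.92), Trem2, a lipid-sensing receptor (-1.84), and Adgre1, which encodes F4/80 (-1.40), were also lower. The complement genes C1qb (0.28) and C1qc (0.01) were not called. With the granule lists out of the total 1 of the 19 was lower, under median-ratio scaling 5, and without clones 19 and 21 none, with a median of -0.90.

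Lysosomal genes were lower in 8 of 18 cases (median -1.03), 3 with the granule lists out of the total, 6 under median-ratio scaling and 0 without clones 19 and 21, where the median was -0.89. Ctsz, the carboxypeptidase cathepsin Z, was lower by 1.72 (SE 0.35, adjusted p = 0.0164), at 38.1 to 175 against 258 to 534 TPM in clones 1 to 13 and 71.1 to 221 against 154 to 494 TPM in clones 15 to 26. Its call held in every fit that left out 1 clone and was lost without clones 19 and 21 together. Ctsb (-1.79), cathepsin B, Psap (-1.77), the precursor of lysosomal sphingolipid activators, and Ctsl (-1.66), cathepsin L, were lower too, while Ctsd (-0.95) and Grn (-0.77) were not called. Of 16 fits that left out 1 clone, Ctsb lost its call in 13 and Psap in 10. Ctsb also lost it under 2 of the other scalings and Psap under 1. Clone 19 was the lowest of the high group of its set in Ctsb, at 48.0 TPM, and clone 9 of the other, at 162 TPM.

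The largest differences downward included Ctsk, cathepsin K, a collagen-degrading protease (chr3:95499256-95509362). It held 9.33, 7.21, 15.3 and 0.847 TPM in the high clones of the first set against 294, 179, 60.2 and 71.2 TPM in the low ones, with no overlap. Levels in clones 15 to 26 were 19.8, 1.95, 3.82 and 2.88 TPM against 19.2, 19.003, 8.54 and 15.7 TPM, where clone 16 overlapped the low group (-2.79, SE 0.58, adjusted p = 0.0166). Abcc1, the transporter that exports glutathione conjugates and leukotriene C4, held 9.25 to 20.98 against 40.6 to 202 TPM in the first set and 1.55 to 5.54 against 5.74 to 32.1 TPM in the second. The Abcc1 groups did not overlap within either set (-2.38, SE 0.36, adjusted p = 0.0108). Nckap5l, a microtubule-associated protein gene, was the one of these 10 whose 8 high libraries, at 0.181 to 6.03 TPM, all lay below all 8 low ones, at 6.99 to 47.2 TPM (-2.45, SE 0.39, adjusted p = 0.0108).

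Sec24d, a subunit of the COPII coat of transport vesicles (-2.60), and Ap5s1, a subunit of an adaptor complex of late endosomes (-2.55), parted within both sets as well. Rusc2 (-2.42), Ms4a6d (-2.35), a membrane protein of monocytes and macrophages, Ecm1 (-2.33), an extracellular matrix protein, and AC108945.1 (-2.62) complete the 10 with Spp1, above. AC108945.1 was at 0 TPM in 3 of the 4 high clones of the second set, and it was not called with the granule lists out of the total (adjusted p = 0.0737) or under median-ratio scaling (0.0574). Abcc1, Ap5s1, Ecm1, Nckap5l and Sec24d were the 5 named genes that remained called without clones 19 and 21.

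**Figure D4:**
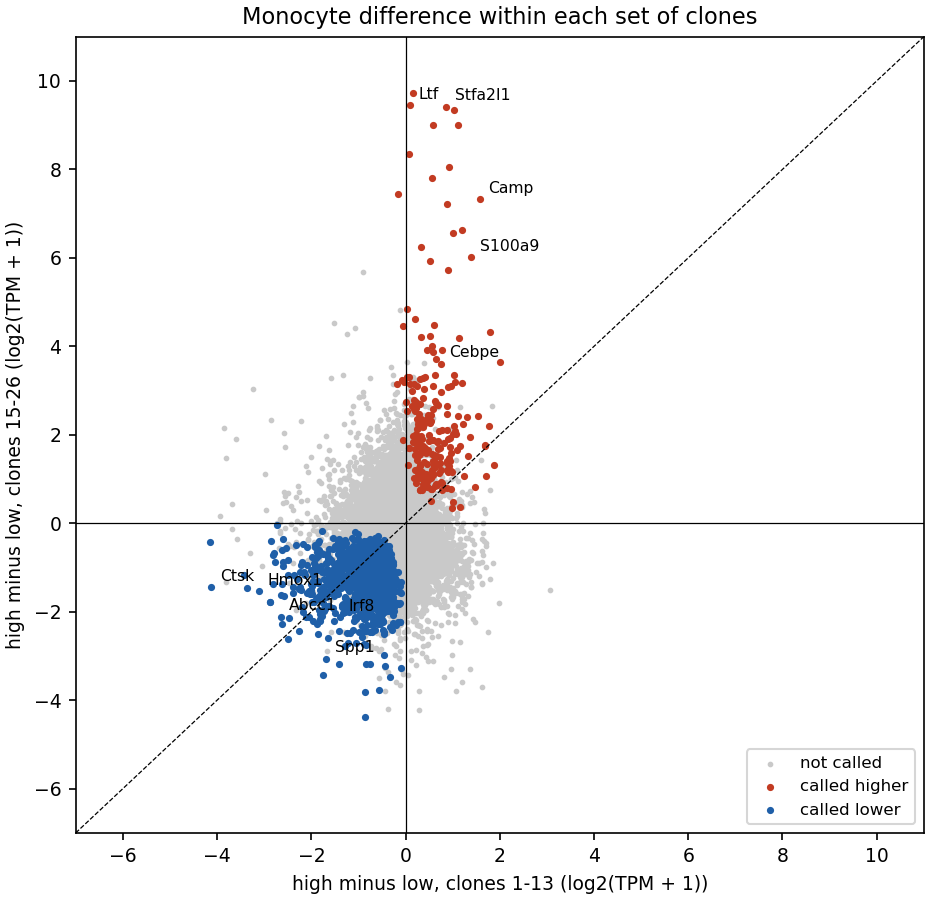
Difference between high and low S100a8 for each of 10758 genes within clones 1 to 13 (horizontal) and within clones 15 to 26 (vertical), both in log2(TPM + 1), with called genes coloured and the dashed line marking equal differences. Called higher genes lie mostly above the line, up to Stfa2 at 9.73 against 0.15, whereas of the 1148 called lower 809 differ more in clones 15 to 26 and the rest more in clones 1 to 13.

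Stress response genes were lower in 11 of 15 cases with none higher (median -1.26), 5 of 15 with the granule lists out of the total. Hmox1, haem oxygenase, held 180, 117, 92.1 and 21.02 TPM against 896, 1171, 332 and 708 TPM in clones 1 to 13, with no overlap, and 61.5, 6.58, 71.5 and 57.5 TPM against 176, 103, 39.4 and 187 TPM in clones 15 to 26, where the low clone 17 lay among the high ones (-2.32, SE 0.56, adjusted p = 0.0214). Txnrd1, thioredoxin reductase (-1.83), Srxn1, sulfiredoxin (-1.73), Gclm, a subunit of the glutathione-synthesising ligase (-1.62), and Nqo1 (-1.48) were lower as well. Also lower were Hspa5 (-1.26), the chaperone of the endoplasmic reticulum, Atf4 (-0.66) and Trib3 (-1.13) of the integrated stress response, and the metallothioneins Mt1 (-1.08) and Mt2 (-2.03). Ddit3 (0.02) and Dnajb1 (0.11) were not called. Without clones 19 and 21 none of the 15 was called, while the list median was -1.20.

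Ribosome biogenesis genes were lower in 8 of 16 cases, all 16 with a negative difference (median -1.12, -0.40 in the first set and -1.86 in the second). Gnl3, nucleostemin, was lower by 1.40 (SE 0.40, adjusted p = 0.0329), Nop14 by 1.32 and Fbl, the rRNA methyltransferase fibrillarin, by 1.29. Nop14 in clones 15 to 26 held 0.990 to 9.77 TPM in the high and 14.6 to 25.1 TPM in the low clones. With the granule lists out of the total 2 of the 16 were called, 4 under median-ratio scaling and 0 without clones 19 and 21, where the median was -0.89. None of 25 cell cycle genes was called. Their median was -0.01, 0.89 in clones 1 to 13 and -1.07 in clones 15 to 26, and it was 0.18 with the granule lists out of the total and 0.20 under median-ratio scaling, so no direction is given. Myc, a growth-promoting factor, differed by -1.49 (adjusted p = 0.0793).

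Of the 6 other S100 genes tested 1 was higher and 3 were lower. S100a4 was lower by 2.10 (SE 0.55, adjusted p = 0.0267), S100a10, the annexin A2 partner, by 1.86, and S100a1 by 0.78, whereas S100a11 was higher by 1.46 (SE 0.38, adjusted p = 0.0269). S100a4 held 87.3 to 1175 against 918 to 3069 TPM in clones 1 to 13 and 184 to 566 against 329 to 2674 TPM in clones 15 to 26, and its groups overlapped in both. S100a11 held 732 to 3493 TPM in the high and 246 to 391 TPM in the low clones of the second set, and overlapped in the first. S100a6 differed by -0.32 and was not called. With the granule lists out of the total the calls of S100a4, S100a10 and S100a1 were lost (adjusted p = 0.0539, 0.0560 and 0.127) and that of S100a11 was not (0.0369). Under median-ratio scaling those of S100a10 and S100a1 were lost (0.0524 and 0.219).

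Energy metabolism changed at single genes. Slc2a3, a glucose transporter of neutrophils among other cells, was higher by 2.41 (SE 0.75, adjusted p = 0.0467), with 8.05 to 203 against 0.334 to 3.40 TPM in clones 15 to 26 and overlapping groups in clones 1 to 13. The transporter Slc2a1 was lower by 1.16 and the phosphofructokinase Pfkp by 1.35. Slc2a3 lost its call with the granule lists out of the total (0.0601), and Slc2a1 there and under median-ratio scaling (0.120 and 0.0524). Of 14 nuclear genes of oxidative phosphorylation, Atp5a1 (-0.85) and Atp5b (-0.76), subunits of ATP synthase, were lower, near the 10.7% of all genes tested. Atp5b lost its call with the granule lists out of the total (0.0658) and under median-ratio scaling (0.138), and Atp5a1 did not. None of 13 mitochondrially encoded genes was called (median -0.64). Of the 6 NADPH oxidase genes only Ncf4, a cytosolic subunit, was higher (0.84, SE 0.21, adjusted p = 0.0220), at 711 to 965 against 224 to 351 TPM in clones 15 to 26. None of 16 cholesterol synthesis genes was called, with a median of 0.04.

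**Figure D5:**
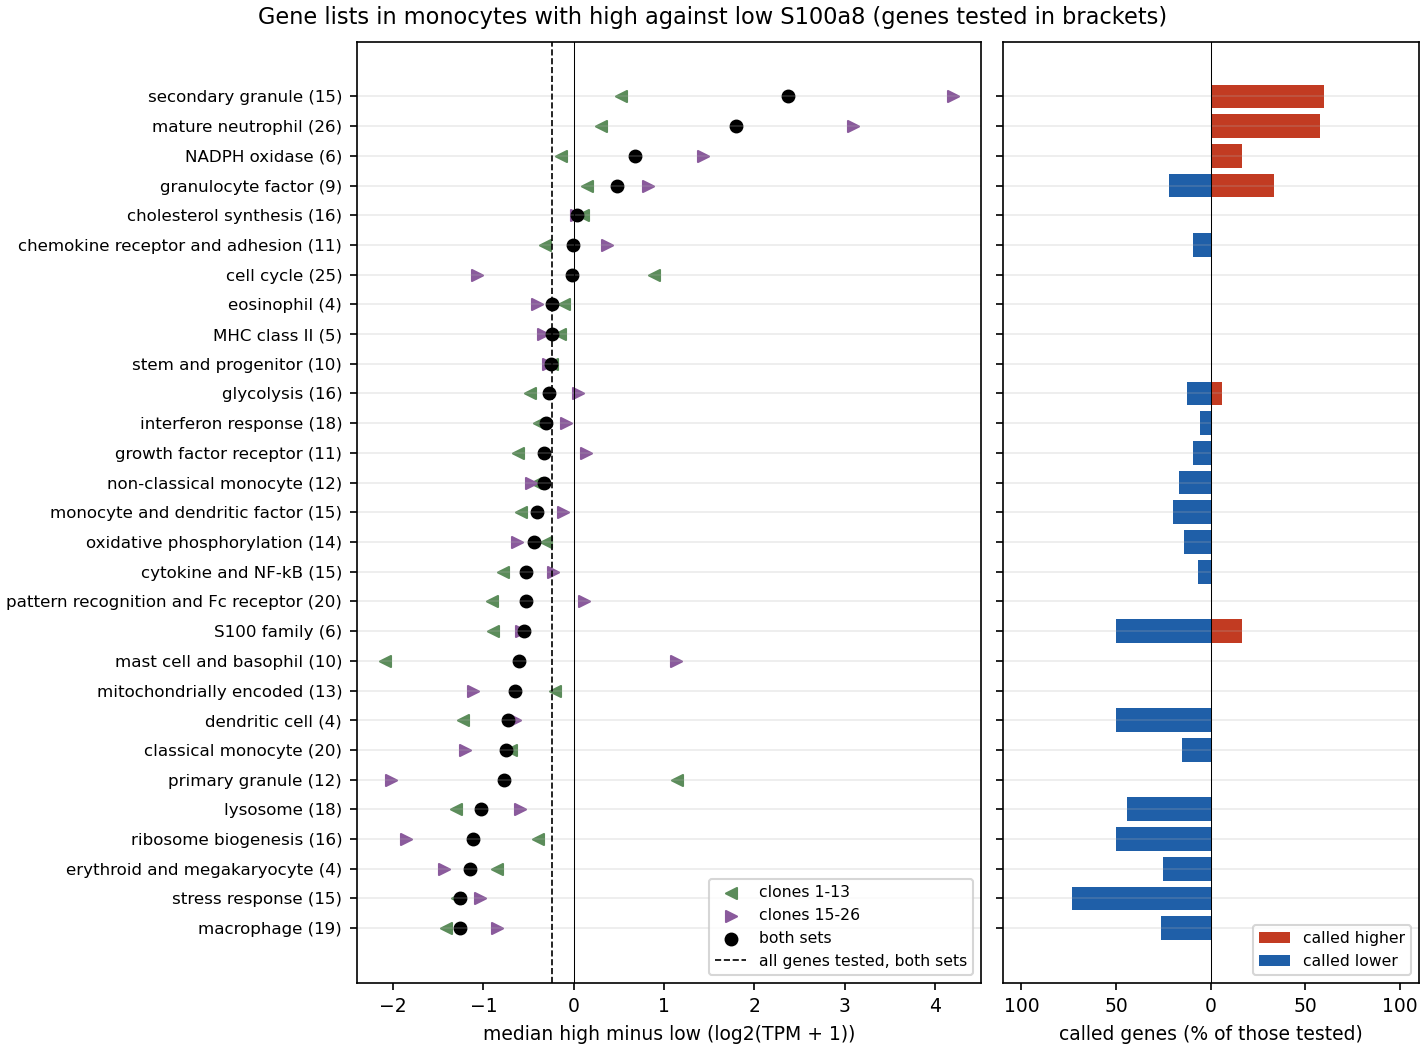
Left, median difference between high and low S100a8 (log2(TPM + 1)) of each gene list with at least 4 genes tested, in both sets (black) and within each, with a dashed line at the median of all genes, -0.24. Right, share of each list called higher (red) or lower (blue); secondary granule and mature neutrophil genes have medians of 2.38 and 1.79, and macrophage and stress response genes of -1.26.

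Other receptor and effector lists held few calls, where 10.7% of all genes tested were lower. None of 20 pattern recognition and Fc receptor genes was called, with a median of -0.53, although Clec4n, dectin-2, differed by -2.02 (adjusted p = 0.0703). Of 11 growth factor receptors Tnfrsf1b (-1.18), of 11 chemokine receptor and adhesion genes Itgb1 (-1.05), of 15 cytokine genes the chemokine Ccl9 (-1.52), and of 18 interferon response genes Bst2 (-1.61) was the single one lower. None of these 4 was called with the granule lists out of the total (adjusted p = 0.118, 0.0937, 0.0695 and 0.0702), nor were Ccl9 and Bst2 under median-ratio scaling (0.0560 and 0.0705). None of the 5 MHC class II genes that passed the filter was called, with Cd74, the invariant chain, at -1.98 (adjusted p = 0.0560).

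Markers of cell types were summed per library to see what else the cultures could hold. Neutrophil markers (12 genes) summed to 19776 to 40229 TPM in the high and 19898 to 29945 TPM in the low clones of the first set, and to 13859 to 78479 against 101 to 1054 TPM in the second. Monocyte markers (10 genes) were present in all 16 libraries, with sums of 2136 to 15329 TPM in the high and 3332 to 20637 TPM in the low group, and all 10 had a mean above 1 TPM in both groups. Macrophage markers (8 genes) summed to 31.3 to 1390 TPM in the high and 639 to 2833 TPM in the low group. Such sums follow their most abundant genes. In the first set Ltf alone held 9592 to 22514 TPM in the high and 12472 to 22467 TPM in the low clones. Lyz2 held 1603 to 13918 against 1186 to 18158 TPM over both sets, and Gpnmb 12.7 to 1110 against 482 to 2341 TPM. In bulk libraries, fewer cells of a type and less RNA of that type per cell cannot be told apart. Mast cell and basophil markers (8 genes) ranged from 0.326 to 3716 TPM in the high and from 23.2 to 1010 TPM in the low group, and none of the 10 genes of that list tested was called. The sets pointed opposite ways, with a list median of -2.09 in clones 1 to 13, where all 10 were negative. In clones 15 to 26 it was 1.13, with 9 of the 10 positive. Eosinophil markers (8 of 9 genes in the table) summed to 3.38 to 880 TPM and 39.8 to 1005 TPM, with none of 4 genes tested called. Progenitor markers (5 genes) summed to 39.6 to 71.4 TPM in the high and 23.9 to 60.5 TPM in the low clones of the first set. In the second set the sums were 11.2 to 108.8 against 13.6 to 331.6 TPM. Myb reached 60.5 TPM in the high and 267 TPM in the low group, with medians of 28.6 and 7.77 TPM. None of 10 stem and progenitor genes tested was called. Dendritic cell markers (9 genes) summed to at most 3.98 TPM in the high and 17.2 TPM in the low group, with Cd209a at 0 in all. Clec10a (-2.14) and Cst3 (-0.83) of the 4 tested genes of the dendritic list were lower, and neither was called under the median-ratio scaling or with the granule lists out of the total. Lymphoid markers were at or below 1 TPM in all 16 libraries except Il7r, the interleukin 7 receptor (0.416 to 11.3 against 5.56 to 42.2 TPM, -1.55). Haemoglobin Hba-a1 was at 0 in all, and of 4 erythroid and megakaryocyte genes tested Vwf, von Willebrand factor, was lower (-1.78). Il7r and Vwf lost their calls with the granule lists out of the total (adjusted p = 0.0787 and 0.0548). Hoxb8 differed by 0.59 and was not called (adjusted p = 0.264), and its TPM do not separate the endogenous gene from the fusion.

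The progenitor libraries of the same clones were not used to form the groups. S100a8 there held 2.83, 2.88, 75.8 and 2.10 TPM in the high clones 7, 12, 2 and 9 and 133, 86.2, 1.33 and 1.83 TPM in the low clones 5, 1, 10 and 11. In the second set it held 375, 46.9, 3502 and 2191 TPM in the high clones 16, 19, 20 and 21 and 0.133, 0.194, 0.439 and 1.95 TPM in the low clones 22, 23, 17 and 24. In clones 15 to 26 every high clone thus exceeded every low clone as a progenitor too (8.62 log2 units, exact permutation test, two-sided, p = 0.0286, the smallest that 4 against 4 allow). In clones 1 to 13 the groups overlapped, with a difference of -1.11 (p = 0.743). Over both sets the difference was 3.76 (p = 0.0522). Across all genes, 0 of 10688 tested in progenitors were called (0%; 205 had an unadjusted p under 0.05, and the smallest adjusted p in limma was 0.999881). The 10 largest higher genes of the monocytes differed by 0.90 (BC117090) to 3.42 (Ltf) in progenitors over both sets. These positive values came from clones 15 to 26, at 2.38 (BC117090) to 8.11 (Ltf). In clones 1 to 13 all 10 had a negative difference, at -1.55 (Stfa1) to -0.20 (Chil1). Of the 10 lower genes 8 differed by -0.97 (Sec24d) to 0.55 (Ecm1) over both sets, while Ctsk and Rusc2 did not pass the filter there. None of these genes was called in progenitors. Igll1 (2.54, unadjusted p = 0.000565), a surrogate light chain gene of early B cells, and Perp (-1.78, unadjusted p = 0.00371) had the smallest p in each direction under the naming rule. Genes called higher in monocytes had a median difference of 0.29 in progenitors and those called lower of -0.11, against -0.04 for all progenitor genes. Fitted alone, clones 15 to 26 gave 8 progenitor genes that were higher.

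The change from progenitor to monocyte within a clone was then compared between the groups, with each clone as its own block. Of 11029 genes tested, 5 differed (0.0453%; 1662 had an unadjusted p under 0.05), all with a lower change in the high group: Ecm1 (-2.88, SE 0.48), Rusc2 (-2.60, SE 0.43), Layn (-2.13, SE 0.35), Ppp1r15a (-1.64, SE 0.29), which encodes a phosphatase subunit of the stress response, and Gas2l1 (-1.59, SE 0.27), with adjusted p of 0.0402 for the others and 0.0461 for Ppp1r15a. In the monocytes of clones 1 to 13, Ppp1r15a held 2.31 to 4.49 TPM with high and 5.96 to 23.2 TPM with low S100a8, and in those of clones 15 to 26 1.12 to 6.05 against 8.70 to 13.7 TPM. Without the block by clone none of the 5 was called, and the count was also 0 when clone 2, 5, 9, 10, 11, 12, 19, 20, 22, 23 or 24 was left out, 1 without clone 1 or 17, 2 without clone 21 and 18 without clone 16.

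Whether the sets of clones showed the same difference was tested by the interaction of group and set. The ranking itself gave the sets unlike S100a8 contrasts. The low clones held 8849 to 19552 TPM in the first set and 237 to 4369 TPM in the second, while the high groups were alike. Genes that follow S100a8 thus differ more in the second set by the rule, and the test cannot separate this from other unlikeness of the sets. It was called for 208 of 10758 genes (1.93%; 2812 had an unadjusted p under 0.05), 161 with a more positive difference in clones 15 to 26 and 47 with a more negative one. The within-set differences had opposite signs for 133 of them, and for 191 the difference was smaller in size in clones 1 to 13. A called interaction itself favours opposite signs and unequal sizes. The same shares over all genes tested are not given, so these counts are no measure of the sets. Both this test and that of the group called 79 genes, among them Stfa2 (9.73 in clones 15 to 26 against 0.15 in clones 1 to 13), Ltf (9.46 against 0.10), Stfa2l1 (9.42 against 0.87) and Camp (7.33 against 1.58). The 5 genes with the smallest interaction p under the naming rule were BC117090, Camp, Tbc1d10c (3.25 against 0.32), Klhdc4 (3.15 against -0.18) and AC166369.3 (1.60 against -0.95), each with an adjusted p of 0.00839. No gene among the 10 named as lower was called, the interaction adjusted p of Ctsk being 0.123 and of Abcc1 0.662. These 10 were named only with the same sign in both sets, which selects against an interaction, so no likeness of the sets follows. Leaving out clone 19 gave 3326 genes called for the interaction, clones 19 and 21 together 2166, clone 16 1349, clone 23 365 and clone 12 43. Leaving out any other clone except 11 also moved the count by over 1.5 times, to between 53 and 126.

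The 6 clones between the groups and the whole order of 22 ranked clones were also described. Across these 22, log2(TPM + 1) of S100a8, centred within each set, correlated most with S100a9 (Pearson r = 0.992), Wfdc21 (0.980), Camp (0.962), Ngp (0.946) and Ncf4 (0.946) among 5039 genes with a mean of at least 10 TPM. Within clones 1 to 13 (n = 12) these r were 0.997, 0.956, 0.926, 0.850 and 0.689, and within clones 15 to 26 (n = 10) 0.994, 0.983, 0.967, 0.955 and 0.969. The most negative were Lman2 (-0.876), a cargo receptor of the secretory pathway, Ddx49 (-0.867), G6pc3 (-0.856), a glucose-6-phosphatase, Mrpl38 (-0.852), a mitochondrial ribosomal protein, and Tomm20 (-0.847), a subunit of the outer membrane translocase of mitochondria. In the same order, their r was -0.941, -0.856, -0.633, -0.788 and -0.361 within clones 1 to 13. Within clones 15 to 26 it was -0.887, -0.876, -0.874, -0.872 and -0.890. The libraries share a fixed TPM total, which bears on negative values, and the groups are drawn from the same clones. The middle clones 18 and 15 held 7593 and 12931 TPM of S100a9 and 1548 and 10400 TPM of Ltf, between the low and the high clones of their set for S100a9, and Ltf in clone 15 was within the high range. The middle clones 4, 13, 6 and 3 of the first set held 27552 to 40850 TPM of S100a9, and 5334, 19566, 24528 and 16677 TPM of Ltf. For Ltf clone 4 was thus below every low clone of its set and clone 6 above every high one.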

How the data were processed

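The authors deposited 1 table of TPM per gene symbol for 48 libraries; Salmon and mm10 are named in the submitters' processing notes, and an annotation release is not given in these sources. Of its rows 26 with calendar dates as names were left out and 34617 kept. TPM keep no depth, so precision rests on the spread between clones. Groups, gene lists (452 genes in 31 lists, 451 in the table) and tests were chosen with earlier results of these data known. Genes with a mean of at least 1 TPM over the libraries compared were tested on log2(TPM + 1) with limma 3.58.1 in R 4.3.3 (mean-variance trend, set of clones as covariate, two-sided, Benjamini-Hochberg, threshold 0.05); S100a8 was left out in monocytes. Differences are high minus low on this scale and understate those of low genes. Single values were tested by exact permutation within sets. The fits were tested on simulated data.

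Named genes are the 10 largest called differences in each direction (same sign in both sets, at least 10 TPM in the higher group, no Gm, Rik or pseudogene entries) and up to 3 called genes per list, or the largest where none was called, beside the 5 smallest p of the progenitor, change and set tests; not all are printed, and other genes of a list are named as examples after their values were seen. The states are paired by clone in the design text, and the test of change blocks on it; deviations of the 2 libraries of a clone correlated above 0.1 in 8 of 16 clones (median r 0.129), so the pairing rests on the design text. Alternatives covered pseudocount, filter, scaling, covariate, group size, ranking and left-out clones; leaving out clones 19 and 21, the pair with the fewest genes of at least 1 TPM, was added after seeing the data. No 2 libraries were identical (highest correlation between monocyte libraries 0.976). Gene positions are from GENCODE M21 and promoters from RefSeq. Tests of single values used scipy 1.17.1 and figures matplotlib 3.10.9, in Python 3.11.15 with pandas 2.3.3 and numpy 2.4.6.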

Additional observations from a re-analysis of the deposited data

Results flagged for a closer look

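Among 130 groups of 8 values examined, 5 held a library far from the others; chance alone would set apart about 1 group in 20. Clone 22, the lowest in S100a8, stood apart from the other low clones in Csf1r (17.5 TPM, the others 70.1 to 216), in Irf8 (12.8 TPM, the others 38.2 to 79.5) and in Ncf4 (224 TPM, the others 320 to 440). Clone 7 stood apart from the other high clones in Pparg (0.7096 TPM, the others 0.0380 to 0.282). Clone 19 did so in its mitochondrial share (19.2% of TPM, the others 1.98 to 9.73%).

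For 14 of the 60 called named genes the difference between high and low S100a8 was itself different in clones 15 to 26 and in clones 1 to 13 by the interaction term in limma. The second set exceeded the first by 9.58 log2 units for Stfa2, 9.37 for Ltf, 8.55 for Stfa2l1, 8.41 for BC117090, 8.32 for BC100530, 7.26 for Stfa3 and 7.12 for Stfa1. The excess was 5.74 for Camp, 5.56 for Chil1, 5.43 for Ngp, 4.62 for S100a9, 4.40 for Slc2a3, 2.86 for Cebpe and 1.19 for Ncf4. All of these are genes that were higher with high S100a8, and the low clones of the second set hold far less of most of them than those of the first. S100a8, which chose the groups, has the same layout, so the excess of genes that follow it is partly set by the ranking.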

How the results depend on the processing

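None of the 60 genes named from the monocyte comparison and the lists that were called changed direction under the alternatives run. The largest differences in each direction were named only with the same sign in both sets, so they could not reverse within a set alone. All 60 were already called over both sets, which favours a stable sign, so their lack of reversals is no measure of robustness. Other named genes changed direction in clones 1 to 13 alone: Mcm6 (-0.56, then 0.71), Ear2 (0.34, then -0.75) and Klhdc4 (1.49, then -0.18), among others. The main counts were 221 genes higher, 1148 lower, 5 for the change between states and 208 for the difference between sets. Without a filter on low values they were 104, 483, 0 and 122. With median-ratio scaling they were 530, 643, 63 and 617. With the granule lists out of the total 272 were lower and 0 differed in change, and without mitochondrial, Gm and pseudogene entries 2017 and 106. With 3 clones per set and group 113 were higher, 1 differed in change and 121 between sets; with 5, 723 were lower, 0 differed in change and 137 between sets. With S100a8 as a continuous covariate over 22 clones 802 were higher and 2420 lower, 5 and 48 in progenitors, and 643 differed in change. Clones 1 to 13 alone gave 0 higher, 0 lower and 27 for change, and clones 15 to 26 alone 122, 31 and 17, with 8 higher in progenitors. Without clones 19 and 21 the counts were 29, 56 and 2166 between sets. The change count was 0 with pseudocount 0.1, 18 with pseudocount 5, 0 with a mean of at least 5 TPM, 0 without the set covariate, 0 without clones 19, 21 and 24, and 0 without the replicate block by clone.

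With 1 clone left out, the counts ranged from 87 to 321 higher, 345 to 1739 lower, 0 to 18 for change and 43 to 3326 between sets. The S100a8 difference in progenitors was 3.76, ranged from 3.20 to 4.37 with 1 clone left out, was -1.11 in clones 1 to 13 alone (reversed), 8.62 in clones 15 to 26 alone, 4.53 with pseudocount 0.1 (p = 0.0429) and 4.05 without mitochondrial, Gm and pseudogene entries (p = 0.0482), all by exact permutation. The Gm share difference ranged from -3.84 to -2.26 points and was 1.86 in clones 1 to 13 alone, and the mitochondrial one ranged from -3.67 to -0.799. The difference in genes with at least 1 TPM ranged from -586.9 to -380.7, and was -341 and -558.5 within the sets, without passing there. The cause of these shifts was not tested. TPM without depth allow no counting limits.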
